A study of Mus musculus with 2 samples.

Results

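The insulin-like growth factor (IGF) system was examined in interscapular brown fat (iBAT), a depot that burns fuel to make heat, as a set of 10 genes: the ligands Igf1 and Igf2, the receptors Igf1r and Igf2r, and the binding proteins Igfbp2, Igfbp3, Igfbp4, Igfbp5, Igfbp6 and Igfbp7. They were chosen by gene symbol, with earlier results of these data known. All 10 were found among the 27179 genes of the count tables. Tissue came from untreated C57BL/6N mice aged 20 days, described as male, that were either wild-type or knocked out for Ucp1, the uncoupling protein of brown fat (Ucp1-KO). Each genotype was represented by 1 library of poly-adenylated RNA from 3 pooled animals. With 1 library per genotype there is no replicate error and no test, and the intervals given cover counting error only.

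IGF1 and IGF2 are secreted peptides related to insulin. Both activate the IGF1 receptor, a tyrosine kinase that promotes growth, survival and, in preadipocytes, differentiation into adipocytes, whereas the IGF2 receptor carries IGF2 to the lysosome for degradation. In extracellular fluid the peptides are held by binding proteins, which prolong their life, keep them from the receptor or, once cleaved by proteases, release them.

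Total counts were alike, with 52950913 from wild-type and 53216727 from Ucp1-KO mice. Mitochondrially encoded genes took 22.4% of them in wild-type and 36.7% in Ucp1-KO, which left fewer counts for the other genes in Ucp1-KO. Counts of single genes are given before scaling unless they are called normalised. Ucp1 itself, the check of the labels, went from 366473 to 37853 counts, and after scaling 12.7% of its wild-type level was left. Low counts were mostly even numbers in both libraries (70.7% and 73.4% of genes with 1 to 10 counts), so read pairs, taken as counts divided by 2, were the unit of every interval. The pools also differed in sex-linked and muscle transcripts. The summed count of 4 Y-linked genes was 0 for wild-type and 5305 for Ucp1-KO, and Xist was present in both (32380 and 16478 counts). For the wild-type pool this contradicts the description as male, and the Ucp1-KO pool held Y-linked and Xist transcripts together. Every one of 15 skeletal muscle markers was lower by 2-fold or more after knockout. Genotype, sex and tissue composition cannot be told apart in this comparison.

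To address whether the IGF system differed between the genotypes, normalised counts (median-of-ratios scaling) were compared as the log2 ratio of Ucp1-KO over wild-type. IGF transcripts were lower in the Ucp1-KO library. Of the 10 genes, 9 had a mean normalised count of at least 10 and were examined, and all 9 had a log2 ratio below 0, against 50.1% of the 15212 genes examined. The interval lay wholly below 0 for 8 of them, compared with 30.5% of all genes, and above 0 for none, compared with 31.5%. The median log2 ratio was -0.52, against -0.0016 over all genes. The differences were modest in size. Only Igf1 was at least 2-fold lower, 1 of 9 genes where 9.55% of all genes were, which is close to the background, and no IGF gene was at least 2-fold higher (7.42% of all genes). At 1.5-fold, 3 of the 9 were lower (Igf1, Igfbp4 and Igfbp5), against 17.9%. Intervals are narrow for well-covered genes, and 8 of the 9 had a mean normalised count above the median of all genes, 695.9. Scaling by total counts moved the median of all genes to -0.31 and the IGF median to -0.83. It put 15.2% of all genes at least 2-fold lower, 4.80% at least 2-fold higher and 53.9% with an interval wholly below 0. With this scaling the 9 IGF genes again had ratios below 0, as did 72.8% of all genes.

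**Figure D1:**
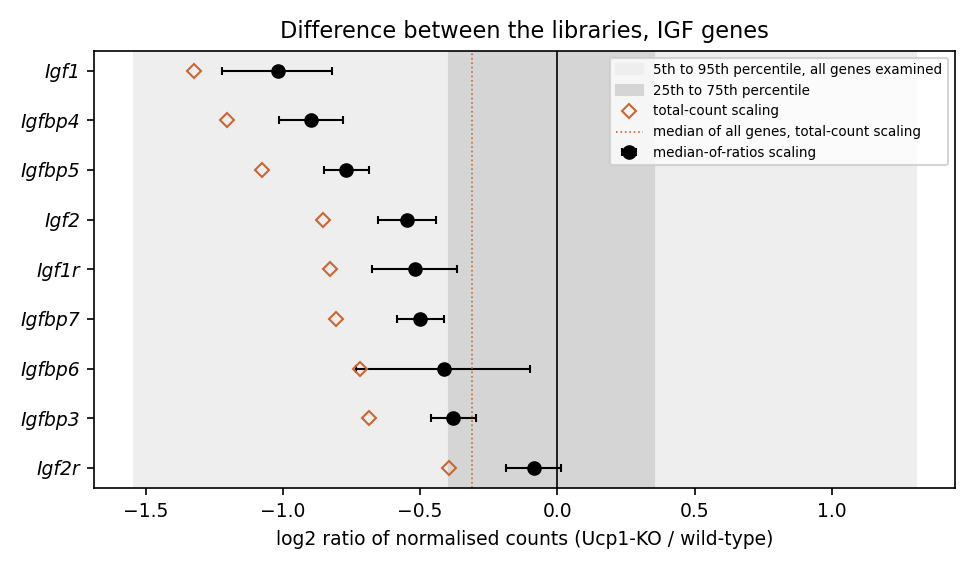
Log2 ratio of normalised counts (Ucp1-KO over wild-type, x axis) of the 9 IGF genes examined, with 95% counting intervals. Black points use median-of-ratios scaling and open diamonds total counts, the dotted line is the median of all genes with total counts (-0.31), and the grey bands span the 5th to 95th and 25th to 75th percentiles of all 15212 genes. The points run from -1.02 for Igf1 to -0.09 for Igf2r, all left of 0.

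The promoters of the genes with the lowest ratios, Igf1, Igfbp4 and Igfbp5, are shown with that of Igf2r, whose ratio was nearest to 0, as examples from both ends of the family's range. They were selected after the values were seen. The windows are those of RefSeq, 300 bases across a transcript start, and lie by exact match in GRCm39 at chr10:87696723-87697022 (plus strand), chr11:98931820-98932119 (plus strand), chr1:72913975-72914274 (minus strand) and chr17:12988544-12988843 (minus strand). The Igf1 window lies inside the annotated span of the gene. Capitals mark motifs of general promoter factors, each searched on both strands. One is the TATA motif, spelled TATAAA. The others are the CCAAT motif and the GC box, the latter spelled GGGCGG, whose copies may overlap.
Igf1: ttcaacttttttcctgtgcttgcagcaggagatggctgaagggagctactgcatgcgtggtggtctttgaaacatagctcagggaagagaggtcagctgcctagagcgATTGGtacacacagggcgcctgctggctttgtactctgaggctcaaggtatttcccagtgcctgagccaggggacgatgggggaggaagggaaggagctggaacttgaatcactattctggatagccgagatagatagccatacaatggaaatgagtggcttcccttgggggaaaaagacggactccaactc
Igfbp4: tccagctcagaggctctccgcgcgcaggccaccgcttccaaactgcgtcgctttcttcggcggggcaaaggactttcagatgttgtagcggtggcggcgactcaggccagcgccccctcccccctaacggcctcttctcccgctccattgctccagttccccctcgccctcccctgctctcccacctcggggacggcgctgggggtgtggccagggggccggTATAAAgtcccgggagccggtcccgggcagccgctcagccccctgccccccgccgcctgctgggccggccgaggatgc
Igfbp5: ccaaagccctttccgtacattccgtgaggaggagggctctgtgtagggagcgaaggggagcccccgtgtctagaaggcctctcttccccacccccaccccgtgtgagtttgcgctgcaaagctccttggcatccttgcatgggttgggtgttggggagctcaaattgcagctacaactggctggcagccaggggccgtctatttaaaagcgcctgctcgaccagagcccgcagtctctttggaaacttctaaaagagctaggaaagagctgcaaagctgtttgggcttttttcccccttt
Igf2r: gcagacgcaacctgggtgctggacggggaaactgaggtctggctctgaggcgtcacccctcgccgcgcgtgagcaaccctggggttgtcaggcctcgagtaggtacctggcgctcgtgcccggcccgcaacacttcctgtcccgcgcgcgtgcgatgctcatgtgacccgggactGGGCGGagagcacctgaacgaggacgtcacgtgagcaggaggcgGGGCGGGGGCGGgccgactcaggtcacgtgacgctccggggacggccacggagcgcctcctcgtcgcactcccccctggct

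These windows differ in CpG content. The Igf2r window is rich in CpG (34 sites) with 3 GC boxes, the Igfbp4 window has 27 CpG and a TATA motif, and those of Igf1 and Igfbp5 have 6 and 10 CpG, with a CCAAT motif on the minus strand of Igf1 and no listed motif in Igfbp5. A CpG-rich window was not particular to Igf2r, since those of Igf1r (48 CpG, 2 GC boxes), Igfbp3 (37 CpG, no GC box) and Igfbp7 (33 CpG, 4 GC boxes) belong to genes with intervals below 0. The median over all 32851 windows was 7 CpG, and 13.6% held a TATA motif, 37.4% a CCAAT motif and 35.7% a GC box. Among the 14 windows of the 10 genes, 2 held a TATA motif, 3 a CCAAT motif and 6 a GC box. The STAT motif TTCNNNGAA, which STAT5 binds downstream of growth hormone, was in none of the 14 windows and in 8.30% of all windows. The FOXO motif TGTTTAC, bound by factors that insulin and IGF1 signals restrain, was in none either and in 3.65% of all windows. With only 14 windows, finding none is close to these shares.

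Among the ligands, Igf1, the peptide made under growth hormone control, had the lowest ratio of the family. The wild-type pool gave 1439 counts (95% interval 1336 to 1548) and the knockout pool 577 (512 to 648). Scaled, these were 1297 and 640.1 normalised counts, so that 49.4% of the wild-type level was left and the log2 ratio was -1.02 (-1.22 to -0.82). Of all genes examined, 9.36% had a ratio as low. The interval includes -1, so whether Igf1 passes the 2-fold rule is within counting error. The gene (Entrez 16000) spans chr10:87693642-87772904 of GRCm39.

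Igf2, the ligand of fetal and early postnatal growth, which in mice is expressed from the paternal allele, followed with 4147 wild-type counts (3970 to 4329) against 2305 in the knockout (2174 to 2442). Its normalised counts of 3738 and 2557 gave a log2 ratio of -0.55 (-0.65 to -0.44). Igf1 was thus lower than Igf2, by 0.47 on the log2 scale (counting interval of the difference -0.70 to -0.24, exact conditional odds ratio). Per kilobase of exon Igf2 was the more abundant ligand in both libraries, at 606.6 and 415.0 normalised counts (wild-type first) against 126.7 and 62.6 for Igf1. Igf2 made up 82.7% of this summed ligand level in wild-type and 86.9% in Ucp1-KO. The antisense gene Igf2os, which overlaps Igf2 (Entrez 16002, chr7:142204503-142220694), had 14 and 22 counts before scaling.

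H19, the maternally expressed non-coding RNA that shares control elements with Igf2 and lies 70545 bases from it, was lower too. Its counts went from 10251 to 2998, and its log2 ratio was -1.47 (-1.56 to -1.39). The ratio of Igf2 was above that of H19 by 0.93 (0.79 to 1.06). The level of H19 per kilobase was 5.35 times that of Igf2 in the wild-type and 2.81 times in the Ucp1-KO library.

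**Figure D2:**
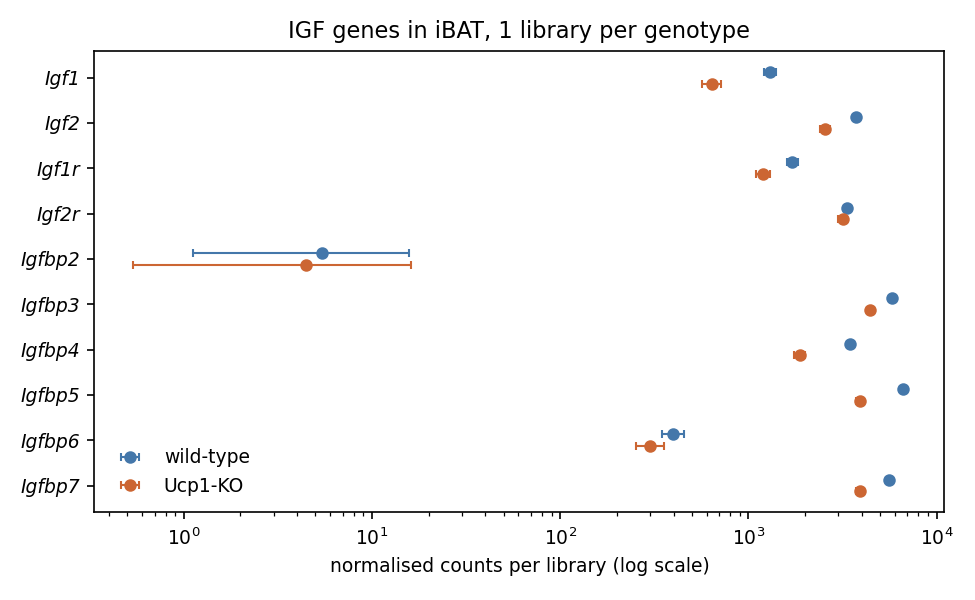
Normalised counts (x axis, log scale) of the 10 IGF genes in the wild-type and Ucp1-KO libraries, 1 library per genotype, with 95% counting intervals. The Ucp1-KO point lies left of the wild-type point for Igf1 (640.1 against 1297), Igfbp4 (1868 against 3480) and Igfbp5 (3893 against 6636), while the points for Igf2r lie close together and the intervals of Igfbp2 overlap.

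The receptors differed from each other. Igf1r, the signalling receptor (Entrez 16001, chr7:67601518-67883416), was measured by 1898 wild-type counts (1779 to 2023) and 1075 knockout counts (986 to 1170), with a log2 ratio of -0.52 (-0.68 to -0.37). Igf2r, the clearing receptor, which also carries lysosomal enzymes and in mice is expressed from the maternal allele (Entrez 16004, chr17:12901293-12988614), gave 3724 counts (3557 to 3897) and 2850 (2704 to 3002). Its log2 ratio of -0.09 (-0.19 to 0.01) was not beyond counting error on read pairs, although intervals on the counts as deposited placed it below 0 (-0.16 to -0.02). With total counts it was -0.39 (-0.49 to -0.29), near the shift of all genes. The ratios of the receptors differed by 0.43 (0.25 to 0.62), Igf1r being the lower. Per kilobase of exon, Igf1r went from 86.5 to 60.3 normalised counts and Igf2r from 358.2 to 337.4. Airn, the antisense RNA across part of Igf2r, had 236 and 243 counts. These are counts before scaling, which divides wild-type counts by 1.11 and Ucp1-KO counts by 0.901.

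The binding proteins made up most of the family's RNA. Igfbp3, the main carrier of IGFs in blood (Entrez 16009, chr11:7156086-7164179), lay at 6401 wild-type counts (6181 to 6627) and 4000 knockout counts (3827 to 4179), and its log2 ratio of -0.38 (-0.46 to -0.30) was the one nearest to 0 among the binding proteins examined. Igfbp5, which also attaches to the extracellular matrix (Entrez 16011, chr1:72897091-72914043), went from 7362 counts (7126 to 7604) to 3509 (3347 to 3677), with a log2 ratio of -0.77 (-0.85 to -0.69). Igfbp4, an inhibitor of IGF action until it is cleaved by the protease PAPP-A (Entrez 16010, chr11:98932064-98945218), went from 3861 (3691 to 4037) to 1684 (1572 to 1802), with a log2 ratio of -0.90 (-1.02 to -0.78). Igfbp4 and Igfbp5 were therefore further below 0 than Igfbp3, by 0.52 (0.38 to 0.66) and 0.39 (0.27 to 0.51). Between Igfbp4 and Igfbp5 the difference of 0.13 (-0.02 to 0.27) did not exceed counting error.

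Igfbp7, a binding protein of low affinity for IGFs that is abundant in vessels (Entrez 29817, chr5:77493130-77555931), was at 6164 wild-type (5948 to 6386) and 3543 knockout counts (3380 to 3712), with a log2 ratio of -0.50 (-0.58 to -0.41). Its end overlaps Polr2b on the other strand (2829 and 2517 counts before division by the size factors of 1.11 and 0.901). The strand setting behind the counts was not given in the sources used here. Igfbp6, which prefers IGF2 (Entrez 16012, chr15:102052697-102057953), had 443 counts (387 to 505) and 270 (226 to 320), and its wider interval of -0.73 to -0.10 around a log2 ratio of -0.41 goes with this lower count. Igfbp2 (Entrez 16008, chr1:72863606-72891634) was barely detected, at 6 wild-type and 4 knockout counts, within the limit that a count of 0 allows (3 read pairs, or 6 counts), and no ratio was formed. This low level stands beside a well-covered neighbour, as Igfbp2 and Igfbp5 lie 5456 bases apart on chromosome 1. Likewise Igfbp1 was listed at 0 in both libraries although Igfbp3 lies 3539 bases away on chromosome 11.

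Levels per kilobase of exon set the genes in order. In the wild-type library Igfbp3 (1618 normalised counts per kilobase) led Igfbp5 (1105), Igfbp7 (1020), Igfbp4 (787.0), Igf2, Igf2r, Igfbp6 (289.3), Igf1, Igf1r and Igfbp2 (2.60), and the counting intervals of neighbours did not overlap. In Ucp1-KO, Igfbp7 (721.4, 688.2 to 755.8) stood above Igfbp5 (648.2, 618.2 to 679.2), the reverse of their order in wild-type. The log2 ratio of Igfbp5 was lower than that of Igfbp7 by 0.27 (0.15 to 0.39). The intervals of Igfbp4 (422.5) and Igf2 (415.0) overlapped, as did those of Igf1 (62.6) and Igf1r (60.3). With the longest transcript as length, Igf2 (540.6) stood above Igfbp4 (486.9) and Igf1r (95) above Igf1 (84.3) in that library. Of the summed binding protein level, Igfbp3 took 33.6% in wild-type and 38.2% in Ucp1-KO, Igfbp4 16.3% and 13%, Igfbp5 22.9% and 19.9%, and Igfbp7 21.1% and 22.2%. Normalised counts were also summed over each class without division by length. The log2 ratio of these sums was -0.66 (-0.75 to -0.56) for ligands and -0.60 (-0.64 to -0.55) for binding proteins, with overlapping intervals, and -0.22 (-0.30 to -0.14) for receptors. The summed level per kilobase of the binding proteins was 6.58 times that of the ligands in wild-type and 6.82 times in Ucp1-KO.

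**Figure D3:**
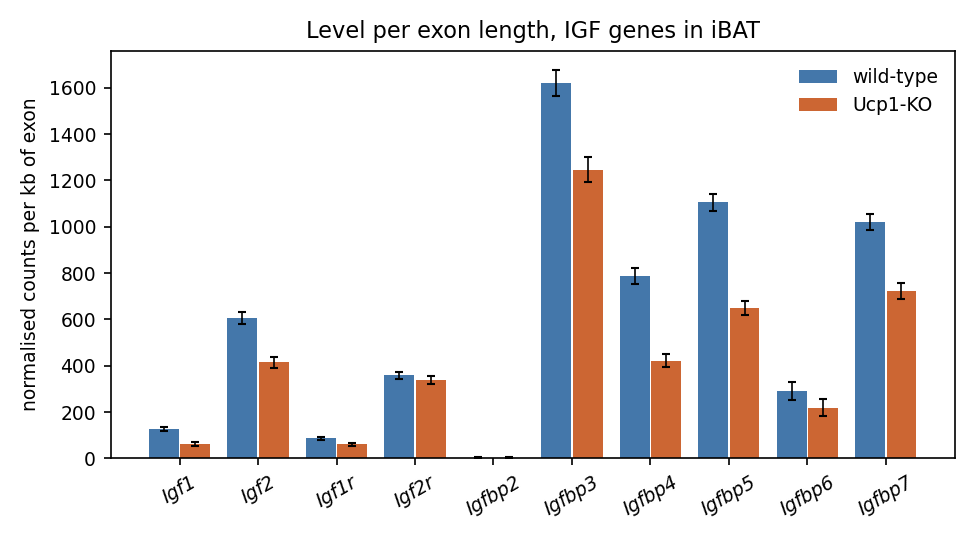
Normalised counts per kilobase of exon (y axis, from 0) of the 10 IGF genes in the wild-type and Ucp1-KO libraries, with 95% counting intervals as error bars and 1 library per genotype. Igfbp3 is the tallest pair (1618 and 1245), and Igfbp5 stands above Igfbp7 in wild-type but below it in Ucp1-KO.

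The growth hormone axis, which drives Igf1, was uneven. All 9 genes of the list were examined. The interval lay below 0 for 4 and above 0 for 4, against 30.5% and 31.5% of all genes, and the median was -0.33. Ghr, the growth hormone receptor, stood at 9486 wild-type and 6114 knockout counts, a log2 ratio of -0.33 (-0.40 to -0.27), and the ratio of Igf1 was lower than that of Ghr by 0.68 (0.47 to 0.90). The transcription factors that carry the signal were lower, Stat5a at -0.97 (-1.11 to -0.84) and Stat5b at -0.67 (-0.78 to -0.55), while the receptor-bound kinase Jak2 was higher at 0.55 (0.44 to 0.66). Of the 4 feedback inhibitors listed, 3 were higher. Cish went from 1583 to 3087 counts, at a log2 ratio of 1.26 (1.14 to 1.39), Socs2 was at 0.51 (0.26 to 0.76), and Socs1 at 1.93 (0.31 to 4.07) from 8 and 26 counts. Socs3 (-0.62, -1.28 to 0.01) was not beyond counting error. Igfals, which holds IGF and IGFBP3 in a ternary complex, had few counts (102 and 34) and a log2 ratio of -1.27 (-2.17 to -0.47).

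Proteases of the binding proteins and their inhibitors had ratios below 0 for all 6 genes (median log2 ratio -0.43), against 50.1% of all genes. With total counts, 72.8% of all genes had a ratio below 0. The interval lay below 0 for 3, compared with 30.5% of all genes. Adam12, a membrane protease that cleaves IGFBP3 and IGFBP5, was at -0.69 (-0.78 to -0.61) and Htra1, a secreted serine protease, at -0.50 (-0.66 to -0.34). Stc2, an inhibitor of PAPP-A, stood at 39 and 4 counts and at a log2 ratio of -2.85 (-6.13 to -0.94). Pappa, with 184 and 122 counts, was at -0.29 (-0.78 to 0.19), Pappa2 at -0.37 (-1.92 to 1.06) and Stc1 at -0.20 (-0.45 to 0.06), none beyond counting error.

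Downstream of the receptors no common direction was seen. Of 23 genes for insulin and IGF receptor signalling, 22 were examined, with a median of -0.05. Beyond counting error, 8 were above and 9 below 0, against 31.5% and 30.5% of all genes. Insr, the insulin receptor, had a log2 ratio of -0.14 (-0.20 to -0.07), and Igf1r was lower than that by 0.38 (0.21 to 0.55). The docking protein gene Irs1 was higher at 0.67 (0.57 to 0.78). Pik3r2, a regulatory subunit of phosphoinositide kinase, was at -0.55 (-0.75 to -0.34). The lowest was Grb10, an imprinted adaptor that restrains the insulin and IGF1 receptors, with 6683 and 2338 counts and a log2 ratio of -1.22 (-1.31 to -1.12).

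Markers of the cells that could contribute IGF transcripts moved as well, and no marker described here was listed at 0 in either library. The number of markers with an interval wholly above or below 0 and the median log2 ratio are given with each list's share of all counts, which is on the total-count scale and can therefore differ in direction from the median. Of all genes, 31.5% had an interval above 0 and 30.5% below, and 9.55% were at least 2-fold lower. Adipocyte markers, which check the tissue, held 1.32% of all counts in one library and 1.33% in the other, with 7 of 10 intervals above 0 and 3 below (median 0.25, Adipoq 0.84, Lep -1.26, Retn -1.90). Endothelial markers had 9 of 10 intervals below 0 (median -0.81, 0.252% and 0.125% of counts, Emcn -1.39, Egfl7 -0.92, Flt1 -0.91), and Cldn5 was above 0 (0.50). Pericyte and smooth muscle markers had 7 of 8 below 0 (median -0.50, 0.0494% and 0.0287%, Acta2 -1.02, Myh11 -0.76), and Cnn1 was above 0 (1.85). Preadipocyte and fibroblast markers had 10 of 12 below 0, none at least 2-fold lower (median -0.16, 0.202% and 0.148%, Ly6a -0.68, Lum -0.49, Dpt -0.47). Macrophage markers had 3 of 9 above and 1 below 0 (median 0.11, or -0.20 with total counts, 0.00976% and 0.00847%, Itgam 2.04, Cd68 1.09, Cd163 -0.47). Skeletal muscle markers had all 15 below (median -2.67, 0.589% and 0.0688%, Pvalb -3.92, Mylpf -3.63, Acta1 -3.39). The part of these cell types in the IGF differences was not tested, and fewer cells of a type and less RNA per cell cannot be told apart in bulk tissue.

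**Figure D4:**
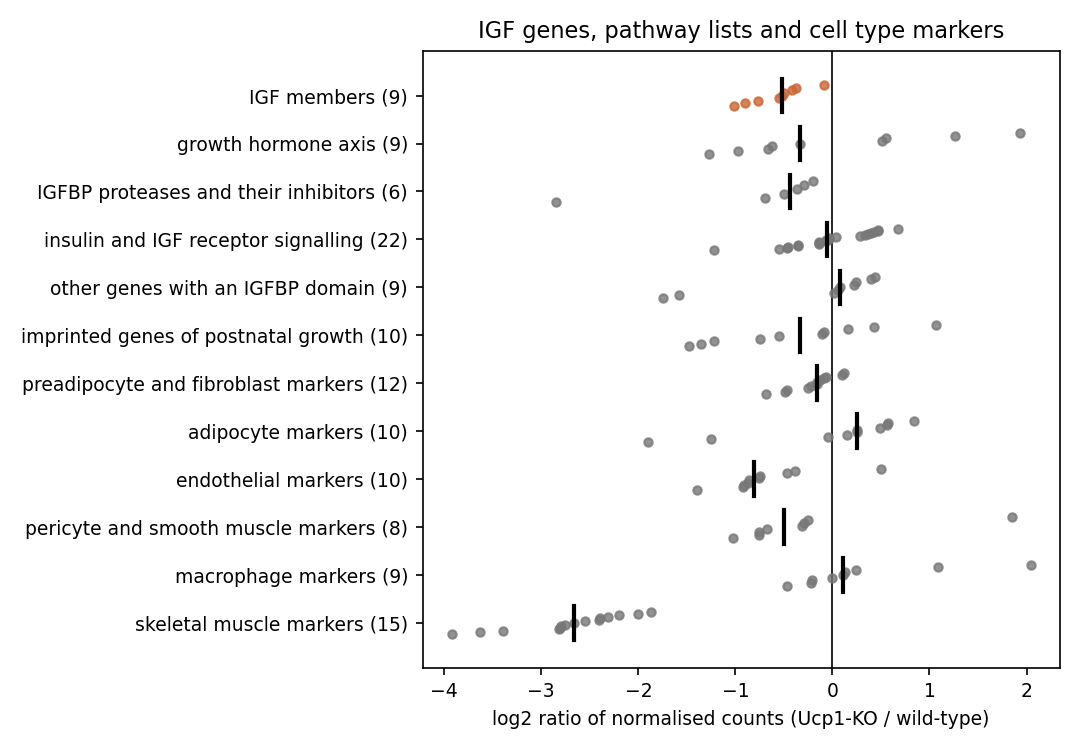
Log2 ratio of normalised counts (Ucp1-KO over wild-type, x axis) of each gene examined in the IGF set (orange) and in the pathway and cell type lists (grey), with the number examined in brackets and the list median as a black bar. All IGF genes lie left of 0 around a median of -0.52, and growth hormone axis genes lie on both sides of 0.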

How the data were processed

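RNA was measured in iBAT of 20-day-old mice, 1 library per genotype. The deposited values are raw counts per gene, not normalised, which the authors made with featureCounts. The submitters' processing notes name Trim Galore, HISAT2 and the build mm39 (GRCm39). Versions, annotation, strand setting and treatment of reads matching several places were not given in the sources used here, so genes that overlap are uncertain. Genes without a symbol (1319, 0.156% and 0.121% of counts) were kept.

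Counts were divided by median-of-ratios size factors (1.11 for wild-type and 0.901 for Ucp1-KO, DESeq2 1.42.0 in R 4.3.3), and log2((Ucp1-KO + 0.5)/(wild-type + 0.5)) was formed. Intervals were 95% exact Poisson for a count and exact conditional binomial (Clopper-Pearson) for a ratio, on read pairs, and cover counting error only, as PCR copies of a molecule are not independent. Genes below a mean of 10 normalised counts were not examined. Of a single gene, lower or higher means an interval wholly below or above 0, and the size rule was 2-fold. Positions and exon lengths (union of exons) were those of GENCODE mouse release 39, joined by symbol. Promoters were RefSeq windows of 300 bases annotated on GRCm38.p6 and placed in GRCm39 by exact match. The interval script was tested on simulated counts with known folds, drawn as Poisson read pairs, as the intervals assume. That test checks the calculation and not whether the data follow this model. Genes were named by a rule: all 10 IGF genes, Ucp1, all measured genes of the growth hormone axis, protease and further IGF family lists, and the 3 ratios largest in size of every other list reported. Insr, Cldn5 and, of the genes overlapping an IGF gene, Igf2os, Airn and Polr2b were added after their values were seen. Further overlapping genes with a listed count were Pgpep1l at Igf1r (31 wild-type and 0 knockout counts) and Mir483 at Igf2 (0 in both). Others, such as Gm49394 on the same strand as Igf2, were not listed in the count tables. Members and lists were chosen with earlier results of these data known. Alternatives were edgeR 4.0.16 TMM factors, total counts with and without mitochondrial genes, other minimums, pseudocounts, fold rules, intervals and lengths. A further marker list is not reported here.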

Additional observations from a re-analysis of the deposited data

How the results depend on the processing

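No paired analysis was possible because there is a single library per genotype, and none could be left out in turn. Total-count scaling, under which all genes had a median of -0.31, moved most results by about that amount: Igf1 to -1.32, Igfbp4 to -1.20, Igfbp5 to -1.08, Igf2 to -0.85, Igf1r to -0.83, Igfbp7 to -0.81, Igfbp3 to -0.69 and Igf2r to -0.39. The medians became -0.83 for the IGF genes, -0.64 for the growth hormone axis and -0.36 for receptor signalling, those of the adipocyte markers, macrophage markers and IGFBP-domain genes turned to -0.056, -0.20 and -0.23, and 3 IGF genes in place of 1 were at least 2-fold lower. The 1.5-fold rule also gave 3, by its construction. A minimum mean of 50 moved the growth hormone axis to -0.48, since Socs1 was left out. TMM factors, total counts without the mitochondrially encoded genes (22.4% and 36.7% of counts), a pseudocount of 5 and factors computed without marker and mitochondrial genes, the last chosen after seeing the data, left every IGF ratio within its counting interval. Intervals on the counts as deposited, or total counts, placed 9 rather than 8 IGF genes below 0, the added gene being Igf2r. With total counts 53.9% of all genes were below 0 in this way, against 30.5%. Depth limits Igfbp2 and widens the intervals of Igfbp6, Pappa2, Socs1 and Stc2.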

Other observations

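A list of 8 further genes tied to the IGF system had 3 with enough counts to be examined, all for RNA-binding proteins that regulate Igf2 mRNA, and these differed in direction. Igf2bp2, which is expressed in adult tissues, went from 286 wild-type to 672 knockout counts, with a log2 ratio of 1.53 (95% counting interval 1.25 to 1.82). Igf2bp3 went from 149 to 60, with a log2 ratio of -1.01 (-1.68 to -0.38). Igf2bp1 was nearly undetected in wild-type (1 and 20 counts), and its log2 ratio of 4.02 has an interval of 1.09 to 14.72. Insrr had 0 and 6 counts, within the limit that a count of 0 allows, and Igfbp1, Igfbpl1, Ins1 and Ins2 were listed at 0 in both libraries.

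Genes outside the family whose proteins carry an IGFBP domain had a median log2 ratio of 0.08 (-0.23 with total counts) over the 9 of 11 genes examined. Ccn1, a matrix protein gene that mechanical signals induce, was above 0 (0.43, 0.29 to 0.58). The serine protease gene Htra3 went from 2556 to 694 counts, with a log2 ratio of -1.58 (-1.76 to -1.41), lower than any IGF gene. Ccn5 was at -1.74 (-4.27 to 0.05) from 26 and 6 counts, not beyond counting error.

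Among 10 imprinted genes of postnatal growth, a list that includes Igf2 and Igf2r, the interval lay below 0 for 6 and above 0 for 2. Over all genes these shares were 30.5% and 31.5%. The median of the list was -0.33. The cell cycle inhibitor gene Cdkn1c went from 4556 to 1447 counts, with a log2 ratio of -1.35 (-1.48 to -1.23), beside H19 and Grb10, whose values are given above. Peg3, the furthest above 0 (named after its value was seen), went from 2068 to 3509 counts, with a log2 ratio of 1.06 (0.95 to 1.17).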
